A study of Mus musculus with 4 samples.

Results

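Tnfsf11, its receptor gene Tnfrsf11a and 6 genes that mark cell fusion or resorption in macrophages (Ocstamp, Dcstamp, Acp5, Atp6v0d2, Ctsk and Cdh1) were followed across the CD45+ cells of mouse fibrosarcomas. They were taken by symbol from the gene names of the 4 deposited matrices, and all 8 were found among 31053 gene features. Live CD45+ cells (leukocytes) had been sorted on day 11 after implantation from untreated tumours and profiled with 10x Genomics 3′ v3 chemistry. Cas9 Control and Raldh1/3 DKO tumours gave 2 libraries each, and every library pooled 2 tumours, so that each group rests on 4 tumours. Raldh1 and Raldh3 are names of retinaldehyde dehydrogenases that make retinoic acid (genes Aldh1a1 and Aldh1a3), and the series title asks how retinoic acid from the tumour bears on monocyte differentiation inside it. The labels give no mouse strain, age or sex, and do not say whether a group derives from 1 edited clone. Below, DKO stands for the double-knockout group.

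Tnfsf11 encodes RANKL, a membrane-bound and shed cytokine of the TNF family best known from bone. RANKL binds RANK, the product of Tnfrsf11a, on cells of the monocyte lineage. Through the adaptor TRAF6 and the transcription factors NF-κB and NFATc1 it drives their differentiation into multinucleated osteoclasts. OC-STAMP and DC-STAMP, the products of Ocstamp and Dcstamp, are membrane proteins needed for the fusion of osteoclast precursors and of macrophage giant cells. E-cadherin (Cdh1) is a homophilic adhesion molecule that macrophages display when they prepare to fuse under type 2 cytokines. Acp5 encodes tartrate-resistant acid phosphatase, Atp6v0d2 a subunit of the proton pump that also takes part in fusion, and Ctsk the collagen-degrading protease cathepsin K. In immune tissue RANKL is also made by activated T cells and acts on dendritic cells.

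In the mouse genome (GRCm38), Tnfsf11 lies at chr14:78277445-78308043 on the minus strand and Tnfrsf11a at chr1:105780718-105847981 on the plus strand. The fusion genes Ocstamp, at chr2:165393760-165400405 (minus), and Dcstamp, at chr15:39745930-39760938 (plus), are on different chromosomes. Acp5 spans chr9:22126727-22135711 (minus), Atp6v0d2 chr4:19876841-19922605 (minus), Ctsk chr3:95499256-95509362 (plus) and Cdh1 chr8:106603351-106670246 (plus).

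RefSeq's table of promoters (GRCm38.p6) held entries for 4 of the 8 genes. The 250 bases before the start are shown for Tnfsf11 and for the resorption genes Acp5 and Ctsk. Tnfsf11 was called between the groups by the main test below in NK-like cells only, and not under every alternative. The levels of Acp5 and Ctsk had a Pearson r of 0.69 over the 14 macrophage clusters described below, and 0.67 without cluster M13. In cluster M4 Acp5 was higher and Ctsk lower in both DKO libraries, as a description. The RANKL pathway acts on resorption genes through NFAT factors together with PU.1, AP-1 and MITF, so 4 motifs were searched on both strands: GGAAA (NFAT core), GAGGAA (PU.1), TGANTCA (AP-1) and TCANGTG (MITF). GAGGAA and GGAAA overlap only where a GAGGAA is followed by another A. Capitals mark the matches. For Acp5 the outermost of 3 annotated starts is shown.
Tnfsf11 promoter, chr14:78308044-78308293 (minus strand): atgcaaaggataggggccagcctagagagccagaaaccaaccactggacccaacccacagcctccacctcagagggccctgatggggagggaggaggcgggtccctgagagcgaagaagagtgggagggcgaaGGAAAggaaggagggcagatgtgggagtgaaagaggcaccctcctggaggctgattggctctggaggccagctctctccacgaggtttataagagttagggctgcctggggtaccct
Acp5 promoter, chr9:22135747-22135996 (minus strand): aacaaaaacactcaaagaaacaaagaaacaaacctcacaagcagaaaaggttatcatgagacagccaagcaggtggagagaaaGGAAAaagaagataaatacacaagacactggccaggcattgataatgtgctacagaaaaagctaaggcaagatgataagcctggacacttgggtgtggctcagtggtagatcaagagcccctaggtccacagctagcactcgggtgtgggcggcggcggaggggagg
Ctsk promoter, chr3:95498960-95499209 (plus strand): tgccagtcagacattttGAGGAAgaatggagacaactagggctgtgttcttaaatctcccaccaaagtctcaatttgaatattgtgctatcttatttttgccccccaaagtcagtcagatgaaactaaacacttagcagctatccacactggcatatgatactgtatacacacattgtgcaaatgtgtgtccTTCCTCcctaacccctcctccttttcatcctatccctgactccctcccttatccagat
The Tnfsf11 stretch held 1 NFAT core, whose first base lies at -117 from the start, and none of the other 3 motifs. The Acp5 stretch held 1 NFAT core at -167. The other starts of Acp5, not printed, held 2 NFAT cores at -117 and -37 and 1 MITF motif at -90 (chr9:22130599-22130848), and 1 NFAT core at -41 (chr9:22131866-22132115). The Ctsk stretch held 2 PU.1 motifs at -233 and -58. Of all 32851 promoters of this length, 55.6% held the NFAT core, 23.3% the PU.1 motif, 12.2% the MITF motif and 6.75% the AP-1 motif, so that these matches are common letters and describe the stretches only.

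The libraries held 5429 to 9206 barcodes with 57458026 to 80032966 unique transcripts (UMIs) each, and 25880 cells remained after filters on genes, UMIs and mitochondrial share and after removal of doublets. Between 0.663% and 1.03% of a library's barcodes also occurred in another library, and 0 of these cells were identical. Cells fell into 24 clusters, named from marker lists. There were 4543, 4957, 3144 and 2160 monocyte/macrophage-like cells in control 1, control 2, DKO 1 and DKO 2, and 1366, 1008, 1703 and 1127 T-like cells. A cluster of 1274 cells with low depth, a Foxp3-led cluster of 563 cells and an Il13-led cluster of 156 cells were left unnamed by the naming rule. Reads of Aldh1a1 (0 or 1 UMI per library) and Aldh1a3 (9 to 28 UMIs) in the sorted leukocytes check nothing about the knockout, since the labels do not say that these cells were edited. Levels are depth-normalised counts (CPM), a gene's UMIs summed over the cells of a library and scaled to a common total over all genes in those cells, and are compared between cells for 1 gene at a time, not between genes.

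Tnfsf11 transcripts came from lymphocytes. T-like cells held 80.1% and 84.4% of a library's Tnfsf11 UMIs in the controls and 86.7% and 80.6% in DKO, while they made up 13.6% to 27.6% of the cells. Their level was 39.7 and 54.3 CPM in the control libraries and 60.2 and 56.1 CPM in the DKO libraries. The Il13-led cluster, whose leading genes are the type 2 cytokines Il13, Il4 and Il5, stood at 61.1 and 35.5 CPM against 178 and 87.7 CPM, and gave 1.08% to 11.5% of the UMIs from 0.216% to 1.42% of the cells. NK-like cells came lower, and the Foxp3-led cluster stood at 9.68 to 19.7 CPM. The monocyte/macrophage-like cells, which made up 46.5% to 66.8% of the cells, held 8 to 11 Tnfsf11 UMIs per library (0.155 to 0.338 CPM).

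A Tnfsf11 UMI was seen in 12.4% and 13.6% of T-like cells in the controls (95% exact binomial intervals 10.7% to 14.2% and 11.5% to 15.9%) and in 17.6% and 16.8% in DKO (15.8% to 19.5% and 14.6% to 19.1%). With every cell thinned to 3000 UMIs these shares were 8.73%, 8.73%, 11.5% and 10.7%. In the monocyte/macrophage-like cells, taken as the level that free RNA could leave in a cell type without the gene, the thinned share was 0.0858% to 0.170%, although their median depth of 8917 to 12840 UMIs was above the 4894 to 6246 UMIs of T-like cells. Intervals cover counting error only.

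Among 13 lymphocyte clusters, made with the 8 genes left out, cluster L8 had the highest Tnfsf11 level. It was led by Serpinb1a, Cd4, Furin, Tnfsf11, Tnfsf8, Il21, Csf2, Csf1 and Cd40lg, genes of activated CD4 helper T cells, and Cd4 was seen in 90.5% of its 1121 cells. Tnfsf11 stood at 172 and 189 CPM there in the controls and at 210 and 187 CPM in DKO, with a UMI in 42.1%, 38.6%, 48.4% and 42.7% of cells. The cluster held 55.4% to 64.6% of all lymphocyte Tnfsf11 UMIs and 13.2% to 17.7% of the lymphocytes. The Il13-led L12 followed at 80.4, 38.4, 154 and 82.5 CPM, a range below that of L8. Below L12, neighbours in the order overlapped over the 4 libraries. They ran through L1, a Cd4-positive cluster led by Ramp3 and S1pr1 (37.1 to 88.7 CPM), the cytotoxic Cd8a cluster L6 (14.8 to 26.4 CPM) and the Foxp3-led L2 (11.5 to 26.9 CPM) to the Ncr1-positive L7 (1.76 to 8.0 CPM).

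**Figure D1:**
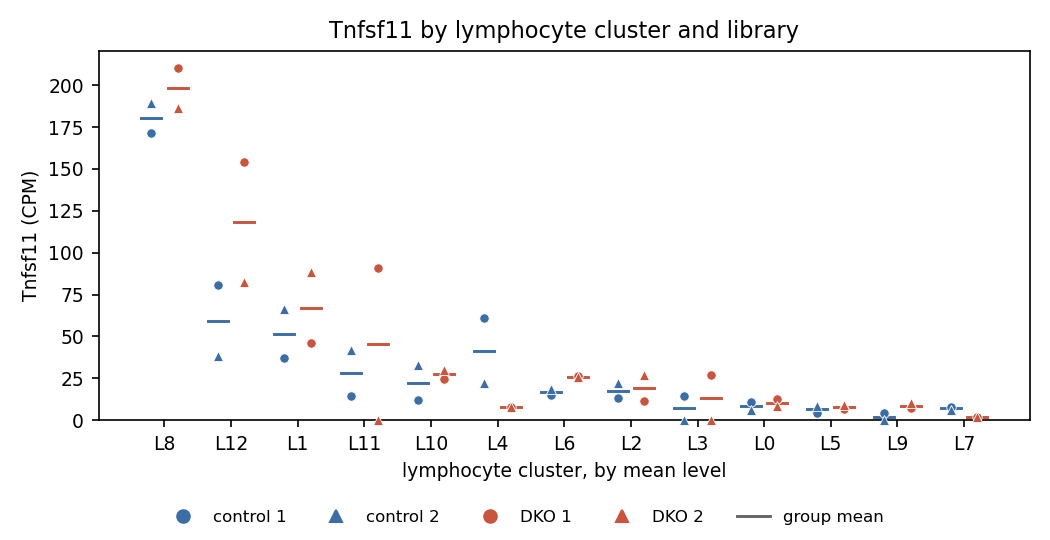
Tnfsf11 level in CPM (vertical axis) in each of 13 lymphocyte clusters (horizontal axis, ordered by mean level); each point is 1 library, blue for control and red for DKO, and bars are group means of 2 libraries. L8 lies between 172 and 210 CPM in all 4 libraries, above every other cluster. The mean was higher in DKO in 11 of the 13 clusters and lower in L4 and L7, where both control points are above both DKO points. Both DKO points are above both control points in 3, L6, L9 and L12.

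The same picture held cell by cell. At 3000 UMIs per cell, 64.6%, 60.7%, 73.0% and 72.7% of Tnfsf11-positive lymphocytes also had a Cd4 UMI (control 1, control 2, DKO 1, DKO 2), against 16.2%, 17.2%, 18.2% and 22.7% of Tnfsf11-negative ones. Cd40lg, the helper T cell ligand of CD40, was seen in 20% to 28.6% of positive and 3.64% to 6.35% of negative lymphocytes. Il13 was seen in 4.76% to 10.6% against 1.78% to 3.84%. Cd8a went the other way, at 7.14% to 14.1% of positive against 21.7% to 38.9% of negative cells. Within L8 the Cd4 shares lay closer, at 82.4% to 90.9% of positive and 79.6% to 85.4% of negative cells. These shares describe the cells of 4 libraries and were not tested.

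Tnfsf11 fell in NK-like cells of DKO tumours and did not pass the test in T-like cells. In T-like cells the DKO libraries were both above the controls, by 0.24 ± 0.16 (log2 fold change of DKO over control ± SE), and did not pass the test (edgeR quasi-likelihood, adjusted p = 0.538 over 10992 genes, n = 2 libraries per group). The log2 fold change was 0.01 without control 1 and 0.49 without control 2. In every fit without 1 library the group left with 1 library is assumed to vary like the other, so calls made there rest on the spread of 1 group. In this comparison 0 of the 4 members tested were called, and edgeR called 0.00910% of all genes. An unadjusted p under 0.05 was found for 1 of 4 (Acp5) and for 1489 of all 10992 genes. DESeq2 called 0 members and 0.275% of all genes. Groups did not overlap for 3 of the 4, and for 47.8% of all genes. Over all CD45+ cells the gene stood at 5.54 and 5.71 CPM in the controls and 11.9 and 11.3 CPM in DKO, groups well apart, with a log2 fold change of 0.97 ± 0.14 (edgeR adjusted p = 0.140, DESeq2 adjusted p = 0.000284). In these sums 0 of 8 members were called by edgeR, where 0% of all 14412 genes were. An unadjusted p under 0.05 was found for 6 of the 8 and for 1856 of all genes. Groups did not overlap for 7 of the 8 and for 47.0% of all genes. DESeq2 called 2, Tnfsf11 and Acp5, and 3.24% of all genes. The T-like share of cells was 17.9% and 13.6% in the controls and 27.6% and 24.3% in DKO. Within the controls, the library with the larger share had the lower Tnfsf11 level over all cells, whereas within DKO it had the higher level. Both DKO libraries had larger shares and higher levels than both controls. In such sums more cells of a type and more RNA per cell cannot be told apart. With the 13 lymphocyte clusters held at the same mix in every library (their mean shares), the lymphocyte level was 38.5 and 42.4 CPM against 48.6 and 44.0 CPM, a log2 difference of 0.19. One of them, L11, held 139 cells of low depth (median 917 UMIs) led by myeloid genes such as Cd14, H2-Aa and Mgl2, had a weight of 1.87% and gave 9 Tnfsf11 UMIs. Without it the difference was also 0.19.

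In NK-like cells Tnfsf11 stood at 17.8 and 14.7 CPM in the controls and at 3.05 and 2.52 CPM in DKO, from 32 and 33 UMIs against 7 and 6. The groups did not overlap, and the log2 fold change was -2.59 ± 0.39 (edgeR adjusted p = 0.00959 over 9198 genes). It was the 1 of 3 members tested in these cells that was called, where 0.0761% of all genes were called and 40.7% had groups that did not overlap. The call did not hold with DESeq2 (adjusted p = 0.286, 0.0275% of all genes called) or with a stricter cell filter (log2 fold change -2.16, edgeR adjusted p = 0.114). Without any 1 library the log2 fold change ranged from -2.79 to -2.41 and passed, in fits that called 18 to 381 genes instead of 7. NK-like cells were examined after their Tnfsf11 values had been seen.

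Few cells carried that difference. A Tnfsf11 UMI was found in 11 of 355 and 16 of 372 NK-like cells in the controls, and in 5 of 386 and 4 of 352 in DKO. Of these, 10, 13, 4 and 4 also had Ncr1, the NK receptor NKp46, and 1, 3, 1 and 0 had Cd3e, a subunit of the T cell receptor complex. In the controls 20 of 32 and 19 of 33 UMIs came from cluster L4, led by the granzymes Gzmg, Gzmf and Gzmd, at 79.3 and 23.4 CPM. They lay in 4 of its 15 and 8 of its 67 NK-like cells. In DKO, 36 and 15 NK-like cells of that cluster stood at 7.25 and 8.34 CPM, with a UMI in 2 and 1 of them. In the much larger L7, led by the Ly49 receptors Klra4 and Klra8, the level was 8.0 and 6.03 CPM in the controls and 1.78 and 1.89 CPM in DKO. Cd3e stood at 99.1, 66.5, 63.4 and 20.9 CPM in the NK-like cells of L4 (control 1, control 2, DKO 1, DKO 2). In those of L7 it stood at 2.67, 2.26, 12.4 and 4.26 CPM. The summed CPM of the 8 NK markers was 11200 and 12301 in the controls and 15130 and 15471 in DKO, that of the 14 T cell markers was 1452 to 1528, and Mki67, a gene of dividing cells, stood at 32.8 and 62.9 CPM against 20.5 and 13.8 CPM. The part of these values in the result was not tested.

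The change in NK-like cells differed from that in T-like cells. In a model over both classes with library as a block, the Tnfsf11 log2 change was lower in NK-like cells by -2.81 ± 0.38 (edgeR adjusted p = 0.00182 over 10585 genes, of which 0.0756% were called). It passed under each of 9 alternatives, with adjusted p from 4.36e-10 to 0.0254. This test, too, was chosen after the values were known.

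**Figure D2:**
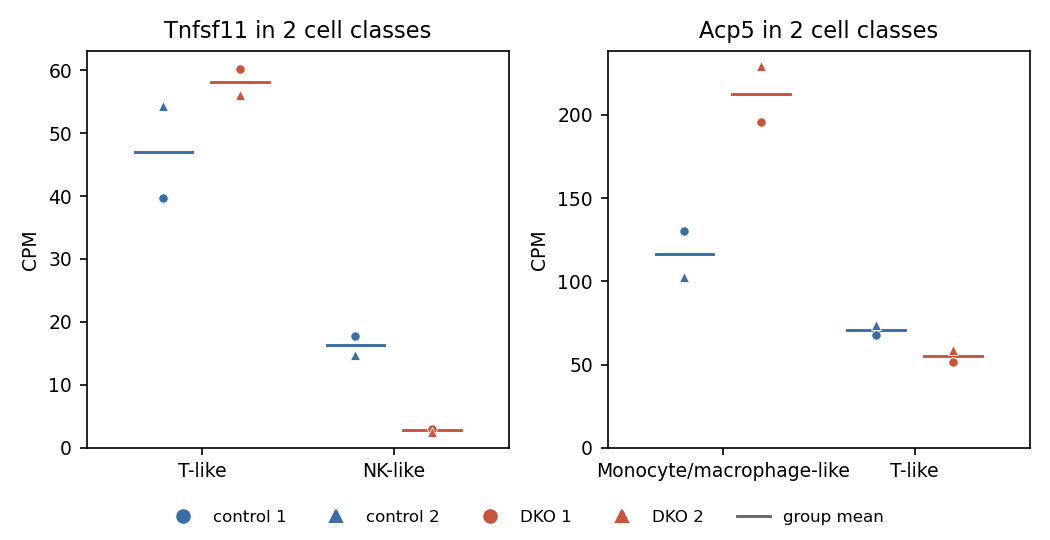
Left, Tnfsf11 level in CPM in T-like and NK-like cells; right, Acp5 level in CPM in monocyte/macrophage-like and T-like cells; each point is 1 library, blue for control and red for DKO, and bars are group means of 2 libraries. Tnfsf11 lies at 14.7 to 17.8 CPM in control and 2.52 to 3.05 CPM in DKO NK-like cells; Acp5 is higher in DKO in the macrophages and lower in DKO in the T-like cells.

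TNF family ligands of lymphocytes were split in T-like cells. Of 9 tested, 4 were higher and 5 lower in DKO, and 0 were called. An unadjusted p under 0.05 was found for 1 of the 9 and for 1489 of all 10992 genes. The median log2 fold change was -0.02, where the median of all genes was 0.00. Ltb, lymphotoxin beta, was the 1 with the small unadjusted p, at 717 and 795 CPM in the controls and 607 and 548 CPM in DKO (log2 fold change -0.46 ± 0.13, edgeR adjusted p = 0.249, called at 0.0129 without DKO 1, where 583 of 11272 genes were). Of 20 tested genes of lymphocyte states, 8 were higher, 12 lower and 0 called. Il2, the T cell growth factor, stood at 26.6 and 13.4 CPM against 6.57 and 2.87 CPM (log2 fold change -2.12 ± 0.49, edgeR adjusted p = 0.260). It was called by DESeq2 (adjusted p = 0.00109), without the filter on low counts, with a replicate block, and without DKO 1 or DKO 2. Gata3, the type 2 lineage factor, stood at 132 and 120 CPM against 150 and 221 CPM (0.48 ± 0.16, edgeR adjusted p = 0.290, called without DKO 1 at 0.000584 and without the filter at 0.0158).

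The receptor gene Tnfrsf11a was read from monocyte/macrophage-like and dendritic-like cells. In the former it stood at 49.6 and 39.2 CPM in the controls and 39.0 and 46.8 CPM in DKO, so that the groups overlapped (log2 fold change -0.08 ± 0.14, edgeR adjusted p = 0.864). T-like cells stood at 0.657 to 1.05 CPM. Across macrophage clusters it varied little: the lowest mean was 18.7 CPM in M1, led by the monocyte genes Hp, Plac8 and Ly6c2, and 11 of the other clusters with at least 20 cells in every library lay between 34.2 and 53.8 CPM. Dendritic-like cells split: Tnfrsf11a stood at 66.6 to 92.5 CPM in the cluster led by the migration genes Fscn1 and Ccr7 and at 15.9 to 21.1 CPM in the one led by Cd209a. In dendritic-like cells as a whole it was 33.7, 32.1, 35.1 and 29.6 CPM, again overlapping (log2 fold change -0.11 ± 0.19, edgeR adjusted p = 0.901).

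The 2 fusion genes had their highest mean level over the 4 libraries in the same macrophage cluster. Among 12 macrophage clusters with at least 20 cells per library, M2, led by Ly6i, Nos2 and Ccl5, had the highest mean Ocstamp level, at 59.5 and 73.4 CPM in the controls and 92.2 and 55.3 CPM in DKO. M3, led by Cdh1, B3gnt7, Edn1 and H2-Eb1, came next at 35.0 and 44.6 CPM against 101 and 63.8 CPM, a range that overlapped that of M2. In both DKO libraries M3 was above M2. Ocstamp was lowest in M8, led by the scavenger receptor gene Cd163, at 2.76 to 6.96 CPM. Dcstamp was rare, and its M2 level of 19.8, 10.6, 18.0 and 19.3 CPM lay above the range of every other one of these clusters, the next being M10 at 1.32 to 8.64 CPM. At 3000 UMIs per cell, Ocstamp was seen in 11.2% to 18.4% of M2 cells and Dcstamp in 2.47% to 4.21%. In T-like cells, at lower depth, the thinned shares were 0.0963% to 0.472% for Ocstamp and 0% to 0.135% for Dcstamp.

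Dcstamp and Cdh1 were seen more often in macrophages with Ocstamp than in those without, in each library. Of macrophages with an Ocstamp UMI, 1.77% to 2.68% had a Dcstamp UMI at 3000 UMIs, against 0.435% to 0.699% of those without (4 to 9 cells with both per library). Cdh1 was seen in 18.6% to 37.9% of Ocstamp-positive and 14.5% to 30.5% of Ocstamp-negative macrophages. Cdh1 was highest in M3, at 192 and 142 CPM in the controls and 229 and 268 CPM in DKO, and in M0, led by Dmkn, Vcan and Thbs1, at 138, 97.9, 168 and 418 CPM. The ranges of M3 and M0 overlapped. Over the 14 macrophage clusters Ocstamp and Cdh1 had a Pearson r of 0.69 of log2(CPM + 10), as a description, since the clusters share libraries. The 14 include M13, 36 cells led by T cell genes such as Satb1, Icos and Cd3d, with Cd3e in 52.8% of cells and Atp6v0d2 from 4.56 to 190 CPM between libraries. Without M13 the r was 0.70.

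The highest mean levels of the resorption genes lay in other clusters. Acp5 was highest in M4, led by Igf1, Apol7c and H2-M2, at 299.7 and 287 CPM in the controls and 390 and 360 CPM in DKO, and was seen in 52.6% to 58.9% of its cells at 3000 UMIs. Atp6v0d2 was highest in M8 (57.7 to 113 CPM), M10 (61.4 to 117 CPM) and M4 (52.9 to 106 CPM), whose ranges overlapped. Ctsk was highest in M8, at 38.4, 39.8, 13.4 and 55.2 CPM, and in the control libraries of M4. In M2 Atp6v0d2 stood at 3.33 to 9.67 CPM and Ctsk at 1.93 to 12.4 CPM. Over the 14 clusters Atp6v0d2 had an r of 0.87 with Ctsk and 0.83 with Acp5, whereas Ocstamp had an r of -0.24 with Atp6v0d2, -0.43 with Ctsk and 0.22 with Acp5. Without M13 these were 0.85, 0.82, -0.25, -0.44 and 0.24.

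Counts by cell differed between Acp5 and Atp6v0d2 in their relation to Ocstamp. Acp5 was seen in 45.6%, 36.8%, 58.8% and 54.9% of Atp6v0d2-positive macrophages (control 1, control 2, DKO 1, DKO 2) and in 22.8%, 18.8%, 27.1% and 30.1% of negative ones. Atp6v0d2 was seen in 13.3% to 44.1% of Ctsk-positive and 4.68% to 7.69% of Ctsk-negative macrophages. Of Ocstamp-positive macrophages, 2.03% to 6.59% had an Atp6v0d2 UMI, against 4.90% to 8.62% of Ocstamp-negative ones, lower in each library. Acp5 was seen in 23.9%, 24.4%, 31.8% and 36.3% of Ocstamp-positive and 23.9%, 19.6%, 29.4% and 31.7% of Ocstamp-negative macrophages, so that it was higher with Ocstamp in 3 of 4 libraries.

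**Figure D3:**
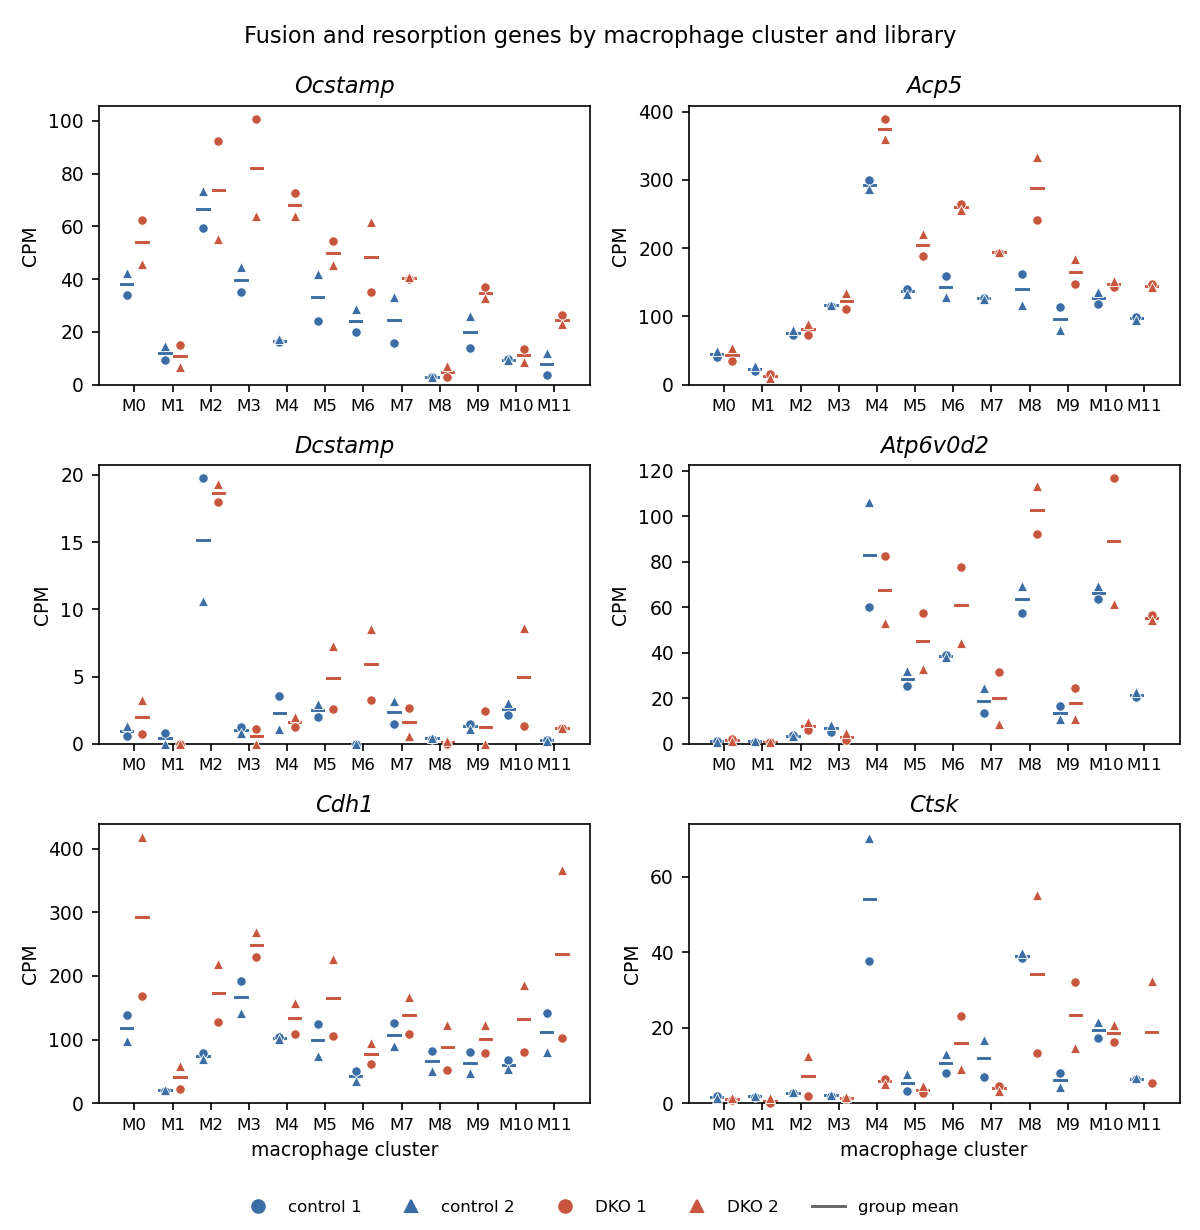
Level in CPM (vertical axes) of Ocstamp, Dcstamp and Cdh1 (left) and Acp5, Atp6v0d2 and Ctsk (right) in the 12 macrophage clusters with at least 20 cells in every library; each point is 1 library, blue for control and red for DKO, and bars are group means of 2 libraries. Dcstamp stands out in M2, Acp5 in M4, and Ocstamp is near its lowest in M8, where Atp6v0d2 and Ctsk are high.

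In M4 Ocstamp was higher and Ctsk lower in both DKO libraries, as a description without a fit in this cluster. The share of all genes without overlap was not computed in M4. In monocyte/macrophage-like cells as a whole it was 40.0%. Ocstamp stood at 16.0 and 17.3 CPM in the controls, from 76 and 16 UMIs, and at 72.5 and 63.9 CPM in DKO, from 452 and 598 UMIs, a log2 difference of 2.03 between group means. In DKO the M4 level thus lay within the DKO range of M2. Ctsk stood at 37.7 and 70.4 CPM in the controls, from 179 and 65 UMIs, and at 6.42 and 5.13 CPM in DKO, from 40 and 48 UMIs. Acp5 and Cdh1 in the same cells were higher in both DKO libraries, and Atp6v0d2, Tnfrsf11a and Dcstamp overlapped. The cluster held 350, 71, 362 and 454 cells, or 7.70%, 1.43%, 11.5% and 21.0% of the macrophages, so that control 2 rests on few cells. Tumour or fibroblast-like cells carried Ctsk at 88.2, 132, 2.96 and 37.4 CPM and gave 19.5%, 13.1%, 0.723% and 6.70% of a library's Ctsk UMIs. The summed CPM of the 6 tumour and fibroblast markers in M4 was 12.8, 9.75, 8.67 and 9.83, and their part in the Ctsk values was not tested.

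In monocyte/macrophage-like cells as a whole, the groups did not overlap for 4 of the 7 members tested (Ocstamp, Dcstamp, Acp5 and Atp6v0d2), all higher in DKO, where 40.0% of all genes did not overlap. By edgeR 0 of 7 were called, and 0.00770% of all 12992 genes were. An unadjusted p under 0.05 was found for 3 of the 7 and for 1122 of all genes. DESeq2 called 2, Ocstamp and Acp5, and 1.15% of all genes. Tnfsf11 fell under the filter on low counts.

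Acp5 stood at 130 and 103 CPM in the controls and at 196 and 230 CPM in DKO, a log2 fold change of 0.84 ± 0.14 (edgeR adjusted p = 0.316, unadjusted 0.000791). Ocstamp stood at 21.4 and 28.1 CPM against 50.5 and 42.3 CPM, a log2 fold change of 0.87 ± 0.19 (edgeR adjusted p = 0.357, DESeq2 adjusted p = 0.0138). Atp6v0d2 stood at 25.2 and 31.3 CPM against 50.2 and 42.5 CPM, a log2 fold change of 0.68 ± 0.17 (edgeR adjusted p = 0.377). For these 3 genes both DKO libraries were above both controls by more than the gap within a group. How many of all genes meet this was not counted, so it does not set the 3 apart. Calls depended on single libraries. By edgeR, Acp5 was called without control 1 (adjusted p = 0.00558), where 512 of 13256 genes were called, and Ocstamp and Atp6v0d2 without control 2 (0.00313 and 0.0311), where 51 of 13283 were.

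Dcstamp, at 3.16 and 2.34 CPM against 4.24 and 3.53 CPM, had a log2 fold change of 0.48 ± 0.24 (edgeR adjusted p = 0.619). Cdh1 stood at 111, 68.0, 101 and 185 CPM, with DKO 1 below control 1 (0.64 ± 0.34, edgeR adjusted p = 0.647, and 0.18 without DKO 2). Ctsk overlapped at 12.98, 14.8, 9.11 and 14.6 CPM (-0.28 ± 0.22, edgeR adjusted p = 0.732), and its sign turned to 0.13 with the stricter cell filter.

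**Figure D4:**
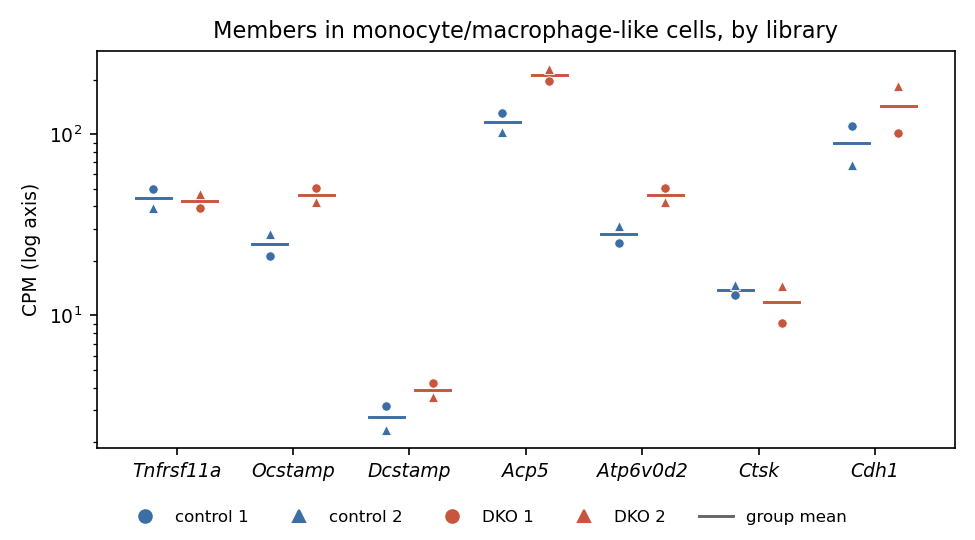
Level in CPM (vertical axis, log scale) of 7 of the genes in monocyte/macrophage-like cells; each point is 1 library, blue for control and red for DKO, and bars are group means of 2 libraries. Both DKO points lie above both control points for Ocstamp, Dcstamp, Acp5 and Atp6v0d2, whereas the groups overlap for Tnfrsf11a, Ctsk and Cdh1.

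The mix of clusters differed between libraries (the M4 share of macrophages ran from 1.43% to 21.0%), so the levels were also taken with the 12 clusters at the same mix (their mean shares) in every library. Ocstamp then stood at 22.4 and 30.4 CPM against 49.0 and 38.4 CPM, a log2 difference of 0.73. The differences were 0.49 for Acp5, 0.41 for Atp6v0d2 and 0.85 for Cdh1, each with both DKO libraries above both controls. For Atp6v0d2 control 2 and DKO 2 lay close, at 32.6 and 33.5 CPM. For Cdh1 control 1 and DKO 1 lay close, at 99.2 and 106 CPM, while DKO 2 stood at 204 CPM. The share of all genes without overlap was not computed at this mix. Without the mix it was 40.0%. Dcstamp (0.41), Ctsk (-0.41) and Tnfrsf11a (-0.04) overlapped. Group means were higher in DKO in 12 of 12 clusters for Cdh1, 11 for Ocstamp, 10 for Acp5 and 9 for Atp6v0d2, but in 6 for Dcstamp, 5 for Tnfrsf11a and 4 for Ctsk. In the same order of genes, both DKO libraries lay above both controls in 7, 8, 8, 6, 2, 0 and 1 clusters. They lay below both controls in 0, 0, 1, 2, 1, 0 and 4. Such counts were not taken over all genes. The clusters share the same 4 libraries and are not independent.

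M2, chosen for the highest mean Ocstamp over the 4 libraries, was fitted on its own. M3, the cluster with the highest Ocstamp in DKO, was not fitted. Its Ocstamp group means were 39.8 CPM (control) and 82.3 CPM (DKO), and the groups did not overlap, as a description. In the M2 fit 0 of 7 members tested were called by edgeR, which called 0% of all 10175 genes. An unadjusted p under 0.05 was found for 2 of the 7 and for 884 of all genes. Groups did not overlap for 2 of the 7 and for 41.6% of all genes. DESeq2 called 1, Cdh1, and 0.388% of all genes. In M2 Ocstamp overlapped (0.16 ± 0.23, edgeR adjusted p = 0.860, and -0.34 without DKO 1), as did Dcstamp (0.29 ± 0.26, edgeR adjusted p = 0.743). Cdh1 stood at 78.8 and 68.6 CPM in the controls and 127 and 219 CPM in DKO, a log2 fold change of 1.18 ± 0.21 (edgeR adjusted p = 0.226). It was called by DESeq2 (adjusted p = 0.000673), by edgeR without the filter on low counts or with a replicate block (0.000115), and by edgeR without control 1, control 2 or DKO 1, in fits that called 133, 18 and 420 genes. The share of macrophages in M2 was 11.8%, 13.2%, 19.7% and 11.1%, with DKO 1 highest and DKO 2 lowest. Its log2 fold change was 0.30 ± 0.67 (edgeR on cell numbers, adjusted p = 0.900 over 14 clusters) and -0.17 without DKO 1.

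Of the other genes of the pathway, none was called in monocyte/macrophage-like cells by edgeR. In the list of RANK signalling, 19 of 20 genes were tested, 11 higher and 8 lower in DKO. The median log2 fold change was 0.08, where the median of all genes was 0.01 and 51.3% were higher. An unadjusted p under 0.05 was found for 4 of the 19 and for 1122 of all 12992 genes. The 4 were Prdm1, which encodes the repressor Blimp1 (44.6 and 49.4 CPM against 68.3 and 61.7 CPM, 0.43 ± 0.13, edgeR adjusted p = 0.448), the adaptor Traf6 (0.32 ± 0.12), the factor Tfec, a relative of MITF (0.32 ± 0.13), and Nfkb2 of the alternative NF-κB pathway (-0.34 ± 0.12).

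Of 7 tested genes for costimulation through ITAM adaptors, 1 was higher and 6 lower, with a median of -0.07 and 0 at an unadjusted p under 0.05. Tyrobp, the adaptor DAP12, had -0.38 ± 0.21, and its receptor partner Trem2 -0.26 ± 0.16. The list of fusion machinery had 9 of 15 higher and a median of 0.02, with 0 at an unadjusted p under 0.05. The tetraspanin gene Cd81 had 0.30 ± 0.14 and Ctnnb1, the β-catenin partner of E-cadherin, 0.24 ± 0.12. Acid secretion and matrix resorption had 10 of 13 higher, a median of 0.19 and 3 at an unadjusted p under 0.05, as had 1122 of all 12992 genes. The 3 were the carbonic anhydrase gene Car2 (0.71 ± 0.28), the kinase Src (0.50 ± 0.20) and the chloride exchanger Clcn7 (0.25 ± 0.10). The anion exchanger Slc4a2 had -0.26 ± 0.11.

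Dendritic-like cells also carried the fusion genes, at mean levels above those of monocyte/macrophage-like cells. The Dcstamp means were 23.1 against 3.32 CPM, with ranges apart. For Ocstamp they were 47.5 against 35.6 CPM, with ranges that overlapped. Within dendritic-like cells Ocstamp and Dcstamp lay in the Cd209a-led cluster, at 45.2, 62.7, 85.5 and 54.4 CPM and at 17.1, 30.5, 30.8 and 39.5 CPM. They were at 0 to 1.55 CPM and 0 to 3.1 CPM in the cluster led by Fscn1 and Ccr7. The mean Dcstamp level of the Cd209a-led cluster, 29.5 CPM, was above the 16.9 CPM of M2, with ranges that overlapped. Of 5 members tested in dendritic-like cells, 0 were called by edgeR (0% of 9770 genes called) and 0 by DESeq2 (0.0262% of all genes called). An unadjusted p under 0.05 by edgeR was found for 2 of the 5 and for 745 of the 9770 genes. Groups did not overlap for 3 of the 5 and for 39.8% of the 9770 genes. Cdh1 stood at 98.3 and 67.9 CPM against 128 and 172 CPM (log2 fold change 0.77 ± 0.19, edgeR adjusted p = 0.509). It was called without DKO 1 (8.08e-07), without DKO 2 (0.0477) and without the filter on low counts (0.00132). Dcstamp stood at 13.1 and 21.8 CPM against 23.5 and 34.0 CPM (0.69 ± 0.28, edgeR adjusted p = 0.648), and Ocstamp at 34.5 and 44.9 CPM against 64.2 and 46.4 CPM (0.41 ± 0.23, edgeR adjusted p = 0.687). Dcstamp was called without DKO 1 (0.00903), and Ocstamp without DKO 2 (0.0430), where edgeR called 845 and 116 genes. The plasmacytoid dendritic-like cells, 92 in all, had Cdh1 at 213, 233, 220 and 301 CPM and 0 Dcstamp UMIs.

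Acp5 was the 1 resorption gene also read from T-like cells. It stood at 67.9 and 73.6 CPM in the controls and 51.7 and 58.8 CPM in DKO, so that the order of the groups was the reverse of that in macrophages (log2 fold change -0.43 ± 0.12, edgeR adjusted p = 0.238). At 3000 UMIs it was seen in 14.1% to 19.3% of T-like cells and in 2.25% to 6.55% of NK-like cells of similar depth. The summed CPM of the 17 monocyte and macrophage markers in T-like cells was 1313 and 1394 in the controls and 1227 and 1225 in DKO, and their part in the Acp5 values was not tested. In a model over both classes with library as a block, the log2 change was lower in T-like cells than in monocyte/macrophage-like cells by -1.27 ± 0.14 (edgeR adjusted p = 0.0187 over 13263 genes, of which 0.369% were called). Without control 2 it was -1.07 and lost its call (adjusted p = 0.0569). Of the member genes, only Acp5 passed in this pair of classes, and in the pairs of macrophages with dendritic-like cells (0.143% of genes called) and with NK-like cells (0.0947%) 0 passed.

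The genes most like each member were taken over the 24 clusters of all cells, by Pearson r of log2(CPM + 10) among 9784 genes, and describe clusters that share libraries. For Tnfsf11 they were Ntrk3 (0.95), Cd40lg and Epas1 (0.91), Xlr4a and Csf2 (0.90), of which Csf2 encodes the macrophage growth factor GM-CSF. For Tnfrsf11a the chemokine gene Cxcl16 led (0.96). For Ocstamp they were the protease inhibitor gene Spint1 (0.96), Slamf8 (0.93), and Naaa, Ear2 and H2-DMb1 (each 0.90). Dcstamp was most like the lysozyme gene Lyz1 (0.82), Atp6v0d2 like Ptgs1 and the chemokine gene Ccl8 (0.90 each), Ctsk like Slc6a8 (0.92), Cdh1 like Ppfia4 (0.89) and Acp5 like Mms19 (0.80). Over the 14 macrophage clusters alone, among 7450 genes, Ocstamp was again most like Spint1 (0.97), followed by Bcl2a1a (0.94) and Itgax (0.91), the gene of CD11c. Acp5 was most like Slc7a2 (0.95) and Pmepa1 (0.94), Atp6v0d2 like Slc6a8 (0.92), and Ctsk like the lysosomal enzyme gene Smpd1 (0.90). Without M13, among 7303 genes, Spint1 (0.98) and Slc7a2 (0.95) still led for Ocstamp and Acp5, while Idua (0.95) led for Atp6v0d2 and Ncstn (0.94) for Ctsk.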

How the data were processed

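The authors deposited 1 filtered 10x matrix of UMI counts per library, made with Cell Ranger, per the submitters' processing notes, which also name R 3.6.0, Seurat 3.1.0 and, as builds, mm10 and GRCh38. All genes in the matrices are mouse genes, and the matrix headers give software version 3.1.0. The counts are raw and whole.

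A cell was kept with 200 or more genes, 500 or more UMIs and a mitochondrial share of up to 10%. Doublets were scored with Scrublet in scanpy 1.11.5, and the highest-scoring cells were removed at 0.8% per 1000 barcodes, since the automatic threshold marked 35 to 108 cells per library. This took out 236 to 678 cells. Cells were clustered (2000 variable genes without the 8 members, 30 components, 20 neighbours, Leiden resolution 1) and named from marker lists. Macrophages and lymphocytes were clustered again in the same way.

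For each class, the UMI counts of a library's cells were added up and tested with edgeR 4.0.16 (TMM, filterByExpr, robust quasi-likelihood F test, Benjamini-Hochberg over all genes tested in those cells, threshold 0.05). The SE given with an edgeR log2 fold change is approximate: the absolute log2 fold change divided by the square root of its F statistic. With 2 libraries per group an exact permutation test cannot go below p = 0.333. Libraries pool different tumours, so the p-values measure the spread between such pools. Alternatives were DESeq2 1.42.0, RLE factors, no filter on low counts, a replicate block, each library left out, no doublet removal, a stricter cell filter (1000 UMIs, 5% mitochondrial) and other Leiden resolutions (2 for classes, 0.5 for macrophages). The scripts were tested on simulated counts. Comparisons of shares used cells thinned to 3000 UMIs, which left out 118 to 297 macrophages and 148 to 356 lymphocytes per library.

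The 8 genes and all lists were chosen with earlier results of these data known. Named genes are the 8 members, the 5 most correlated with each, and up to 4 of each fixed list with the smallest p. The NK-like fit, the fit in cluster L8, the levels at 1 mix of clusters, the values without clusters M13 and L11 and the tests between classes were added after values had been seen. Cluster M4 was not part of the planned fits and was described after its values had been seen. The log2 fold changes, like the CPM, were computed here from the deposited counts.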

Additional observations from a re-analysis of the deposited data

Results flagged for a closer look

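2 results stand out because the difference between DKO and control tumours was not the same in 2 cell classes, by a test of that contrast itself. The Tnfsf11 log2 change of DKO over control was lower in NK-like cells than in T-like cells by -2.81 ± 0.38 (edgeR adjusted p = 0.00182), with both DKO libraries below both controls in NK-like cells and both above them in T-like cells. It rests on 6 to 33 UMIs per library in NK-like cells, where the fall by itself was not called by DESeq2 or with the stricter cell filter. The Acp5 log2 change was lower in T-like cells than in monocyte/macrophage-like cells by -1.27 ± 0.14 (edgeR adjusted p = 0.0187), with both DKO libraries below both controls in T-like cells and above them in the macrophages. Without control 2 the Acp5 difference was -1.07 and no longer passed. By edgeR the Acp5 change was not called in either class by itself. These tests were run for 4 pairs of classes and were added after values had been seen, so they are not independent of the pattern.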

How the results depend on the processing

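Of 520 alternative values over 43 results, the 425 for single genes held 388 with the same direction and side of the threshold, 27 that newly passed it, 2 that no longer did and 8 that turned sign. The cause of these moves was not tested, apart from fewer or more genes or libraries entering a fit. The count of members called in monocyte/macrophage-like cells went from 0 to 2 with DESeq2 and 1 without the filter on low counts, and was 0 to 2 without 1 library. In dendritic-like cells it was 1 without the filter and 0 to 2 without 1 library. Over all CD45+ cells it was 2 with DESeq2 (Tnfsf11 and Acp5) and 1 without the filter. In macrophage cluster M2 it was 1 with DESeq2, 1 without the filter and 0 to 2 without 1 library. In NK-like cells it was 0 with DESeq2 and 0 with the stricter cell filter.

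Leaving out 1 library moved the M2 share from -0.17 to 0.65 and the Acp5 difference between T-like cells and macrophages from -1.47 to -1.07. It moved Tnfrsf11a from -0.206 to 0.0517 in macrophages and from -0.286 to 0.0775 in dendritic-like cells, Ctsk in macrophages from -0.61 to 0.0048 (0.13 with the stricter filter), and in M2 Ocstamp from -0.34 to 0.48 and Dcstamp from -0.10 to 0.76. Calls over all genes moved far more: in macrophages 1 became 138 with DESeq2, 47 without the filter and 0 to 512 without 1 library, in T-like cells 1 became 31, 338 and 10 to 583, and in NK-like cells 7 became 4, 142 and 18 to 381. In the same order, 0 became 4, 119 and 0 to 845 in dendritic-like cells, 425, 78 and 0 to 248 over all cells, and 18, 143 and 10 to 420 in M2. The replicate block gave 5 calls in macrophages, 56 in T-like cells, 8 in dendritic-like cells and 49 in M2.

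Replicate numbers come from titles alone. Same-numbered libraries deviated from their group means with a correlation of -0.18 in macrophages and -0.20 in T-like cells, so the numbers were not taken as pairs. With the replicate block the count of members called in M2 was 1 (Cdh1), and the counts in the other sets of cells kept their values. Depth limits Dcstamp, with 115 to 184 UMIs per library in macrophages, and Tnfsf11 in NK-like cells.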
